A study of Mus musculus with 14 samples.

Results

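Wnt2/Kit endothelial cells are sinusoidal endothelial cells of the mouse liver in which UMIs (unique molecular identifiers, 1 per captured RNA molecule) of Wnt2, Kit, Plpp1, Fam167b and Tinagl1 outnumbered those of Lyve1, Adam23, Flt4 and Cyp4b1. They made up 1161 of 5063 cell barcodes in the library. The series holds 13 bulk libraries of hepatic stellate cells and whole liver, not analysed here, and 1 single-cell library. It came from a C57BL/6 liver without damage or treatment that was perfused and digested with no sort described, and how many animals gave cells is not stated. The series asks about the nucleotide-sugar receptor P2Y14 in stellate cells, and these endothelial cells are part of its unsorted liver.

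Members were selected on measured UMI counts. A floor of 200 detected genes and a ceiling of 20% on UMIs from mitochondrial genes left 4808 barcodes. Of these, 2629 had at least 4 UMIs in all of Stab2, Kdr, Clec4g, Gpr182, Fcgr2b and Egfl7 and at most 2 UMIs in all of Dcn, Colec11, Clec4f and Cd5l, genes of stellate and Kupffer cells. A member had at least 3 UMIs of the 5 Wnt2-side genes, and more than 2 times its UMIs of the 4 Lyve1-side genes. Members were 44.2% of gated endothelial cells (exact 95% interval 42.3 to 46.1). The mirror rule gave 176 Lyve1-side cells, or 6.70% (5.77 to 7.72), used here as the contrast. The other 1292 gated cells met neither rule, 270 of them because both sums were under 3.

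Liver sinusoids are lined by a leaky endothelium without a continuous basement membrane. It clears waste molecules from blood through scavenger receptors, and it secretes signals to hepatocytes. Along the path of blood from the portal to the central vein the endothelium is known to change: the side near the central vein makes Wnt ligands and R-spondin, which hold nearby hepatocytes in their pericentral state. KIT, the receptor of stem cell factor, is known from the same side, and the lymphatic-type hyaluronan receptor LYVE1 is known to be low next to the central vein. Position was not measured here, so the cells are named by their genes.

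Counting errors are given as exact 95% intervals. They cover counting error only. With 1 library there are no replicates and no test, and genes are called higher or lower where CPM (the gene's UMIs scaled to 1000000 UMIs per set) differed by at least 2-fold with at least 50 UMIs in both sets together. The median depth was 1937 UMIs in Wnt2/Kit cells, 1640.5 in Lyve1-side cells and 1867 in the other gated cells. T and B cells, which lack most endothelial genes, stand for free RNA (414 cells, median 1707.5 UMIs). No cap on stellate, Kupffer or hepatocyte UMIs was set for them, and they can make some compared genes themselves. Their hepatocyte markers stood at 5268 CPM summed and 1569 in the median cell, against 2791 and 1971 in Wnt2/Kit cells. Mitochondrial UMIs had a median of 4.64% in Wnt2/Kit cells and 5.23% in Lyve1-side cells.

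The sequence just before the start of 2 rule genes, of Wnt9b and of 2 genes that were lower in members is shown because these genes stand at opposite ends of the order described here. Each line holds the 250 bases before the RefSeq start (GRCm38.p6), read 5′ to 3′ on the gene's strand. Capitals mark GATAA or its reverse complement TTATC, the core letters bound by GATA factors; GATA4 is known to set sinusoidal identity.
Wnt2, chr6:18030446-18030695, minus strand: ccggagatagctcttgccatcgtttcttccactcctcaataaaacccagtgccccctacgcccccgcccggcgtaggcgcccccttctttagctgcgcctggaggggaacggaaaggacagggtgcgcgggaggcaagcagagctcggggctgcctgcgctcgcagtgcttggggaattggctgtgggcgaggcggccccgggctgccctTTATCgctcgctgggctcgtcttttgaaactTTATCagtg
Kit, chr5:75574737-75574986, plus strand: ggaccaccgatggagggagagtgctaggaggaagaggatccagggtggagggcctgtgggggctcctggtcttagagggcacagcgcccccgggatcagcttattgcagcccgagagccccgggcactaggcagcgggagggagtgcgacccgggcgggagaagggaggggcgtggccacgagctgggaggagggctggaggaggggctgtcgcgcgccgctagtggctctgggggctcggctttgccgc
Wnt9b, chr11:103749822-103750071, minus strand: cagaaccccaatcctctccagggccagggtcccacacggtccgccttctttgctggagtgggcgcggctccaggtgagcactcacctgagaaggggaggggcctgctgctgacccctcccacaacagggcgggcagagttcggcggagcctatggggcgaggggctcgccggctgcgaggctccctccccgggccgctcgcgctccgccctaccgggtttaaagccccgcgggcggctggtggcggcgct
Efnb2, chr8:8661243-8661492, minus strand: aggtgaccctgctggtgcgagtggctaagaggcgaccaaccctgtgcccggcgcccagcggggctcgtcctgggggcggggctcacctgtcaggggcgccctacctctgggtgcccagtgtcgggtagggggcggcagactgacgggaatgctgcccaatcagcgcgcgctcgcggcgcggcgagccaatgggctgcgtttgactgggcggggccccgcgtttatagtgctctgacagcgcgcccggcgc
Dll4, chr2:119325534-119325783, plus strand: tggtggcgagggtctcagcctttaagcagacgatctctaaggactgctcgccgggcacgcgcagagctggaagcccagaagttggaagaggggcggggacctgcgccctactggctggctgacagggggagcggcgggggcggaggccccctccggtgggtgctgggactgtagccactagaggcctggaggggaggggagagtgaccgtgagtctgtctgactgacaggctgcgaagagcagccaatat
GATAA or TTATC stood 2 times in the Wnt2 window and 1 time in that of Fam167b, and in no window of Kit, Tinagl1, Wnt9b, Efnb2 or Dll4. Over all 32851 windows of the RefSeq table, 22.6% held it. GTGGGAA or TTCCCAC, the letters bound by the Notch partner RBPJ, were in none of the 5 windows shown and in 5.42% of all windows. The letters were chosen after the windows had been seen, when an earlier set of motifs had given no match in the windows of Wnt2, Kit and Wnt9b. A match describes letters and is no evidence of binding, and the 3′ counts used here say nothing about start sites. Of 19 genes looked up, 13 had an entry; Plpp1, Rspo3, Thbd, Cdh13, Msr1 and Lyve1 had none.

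The genes that chose the members are described first, without a test. Wnt2 encodes a secreted ligand that switches on β-catenin signalling in receiving cells (chr6:17988940-18030585, minus strand, GRCm38, GENCODE vM21). It stood at 477 CPM in Wnt2/Kit cells (450 to 505, 1176 UMIs), 179 in the other gated cells and 52.2 in Lyve1-side cells (30.4 to 83.7, 17 UMIs), against 9.53 in T and B cells. Kit, a receptor tyrosine kinase (chr5:75574916-75656722, plus strand), stood at 329 CPM (307 to 352), 143, 61.5 (37.6 to 94.9) and 8.33 in the same order. The lowest level of both genes was thus in T and B cells, and the other gated cells lay between the 2 ends.

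Plpp1, a lipid phosphate phosphatase at the cell surface, stood at 1244 CPM in Wnt2/Kit cells, 572 in other gated cells, 203 in Lyve1-side cells and 47.6 in T and B cells. Reads of Plpp1 could be shared with Mtrex, which covers 25.8% of its exon bases on the opposite strand; whether counting used strand is unknown from the labels. Tinagl1, a secreted basement-membrane protein, stood at 1602, 873, 403 and 48.8 CPM. Fam167b, whose role is not well known, stood at 708, 417, 206 and 20.2 CPM. On the other side Lyve1 was at 122 CPM in Wnt2/Kit cells (108 to 136) and 858 in Lyve1-side cells (760 to 964). All 9 rule genes were found in both sets, which the rule allows, and in T and B cells too. Detection therefore does not tell a graded pattern from presence against absence.

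Members differed in which rule genes they showed. Wnt2 was found in 57.0% of Wnt2/Kit cells (T and B cells 1.69%) and Kit in 44.7% (T and B cells 1.69%). The 2 genes occurred together in 332 members, Wnt2 without Kit in 330, Kit without Wnt2 in 187, and neither in 312. All 5 Wnt2-side genes were found in 193 members, 4 in 418, 3 in 384, 2 in 154 and 1 in 12. A member had a median of 8 Wnt2-side UMIs (3 to 29) and of 2 Lyve1-side UMIs (0 to 9), and 167 members had no Lyve1-side UMI. Missing UMIs at this depth do not show that a cell lacks the RNA.

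**Figure D1:**
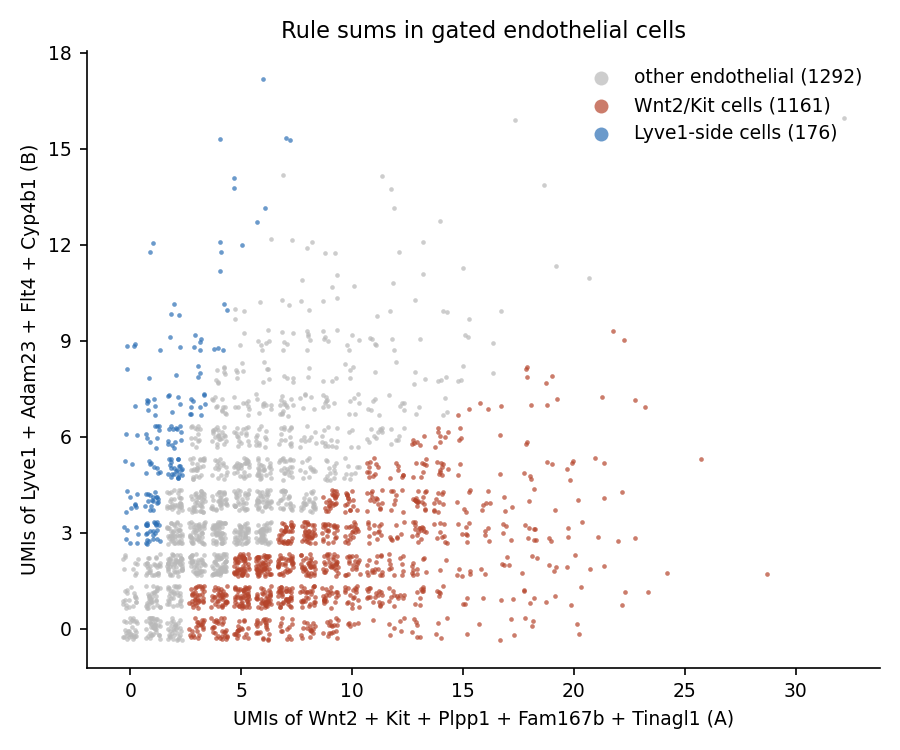
UMIs of the 5 Wnt2-side genes (x axis) against UMIs of the 4 Lyve1-side genes (y axis) in each gated endothelial cell, with points jittered by under 0.5 UMI. The 1161 Wnt2/Kit cells and the 176 Lyve1-side cells border the other 1292 cells with no gap between the groups.

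The rule's edge crossed a continuous range. Members at the lowest allowed sum of 3 numbered 55, with Wnt2 at 145 CPM (79.1 to 243) and Kit at 72.3 (29.1 to 149). Cells just outside, with a sum of 2 that was still more than 2 times the Lyve1-side sum, numbered 31, with Wnt2 at 68.7 CPM (22.3 to 160) and Kit at 41.2 (8.50 to 121). At the ratio, the 324 members nearest to it had Lyve1 at 206 CPM (173 to 243), and the 289 cells just outside it had 246 (207 to 289). At the endothelial gate, 13 members had a sum of 4, and 8 cells with a sum of 3 would otherwise have been members.

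Leaving 1 Wnt2-side gene out of the rule, and choosing both sets with the other genes, gives a view of that gene that its own counts did not choose. Wnt2 was then 2.79-fold higher in members than in Lyve1-side cells (2.14 to 3.70), against 9.13-fold (5.68 to 15.7) with Wnt2 in the rule. Kit was 2.08-fold higher (1.57 to 2.82), against 5.35-fold (3.44 to 8.81). Plpp1 was 1.76-fold higher, Tinagl1 1.47-fold and Fam167b 1.20-fold (1.05 to 1.37), against 6.13, 3.98 and 3.44. Each of the 5 genes was higher on the side chosen by the other 4, by a smaller ratio than under the full rule.

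**Figure D2:**
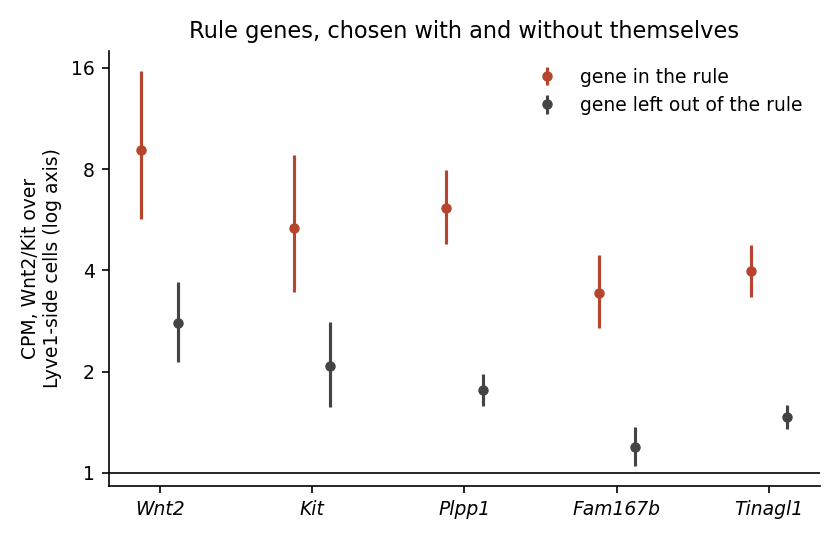
CPM of each Wnt2-side gene in Wnt2/Kit cells over Lyve1-side cells (log axis, bars are 95% counting intervals), with the gene in the rule (red) and with the sets chosen without it (grey). Without itself in the rule each gene's ratio was lower, from 9.13 to 2.79 for Wnt2 and from 3.44 to 1.20 for Fam167b.

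Endothelial genes that the gate did not use were compared between the sets. Of 13 pan-endothelial genes outside the rule, each with at least 50 UMIs, none differed by 2-fold between Wnt2/Kit and Lyve1-side cells. Of 9 sinusoidal genes none did (all genes 5.2% higher and 0.965% lower). Aqp1, a water channel, stood at 3927 CPM in Wnt2/Kit cells (3849 to 4006) and 3790 in Lyve1-side cells (3581 to 4007), against 137 in T and B cells. Dnase1l3, a secreted nuclease, stood at 3685 and 3735 CPM, against 210. The scavenger receptor Stab1 stood at 877 and 778 CPM, the mannose receptor Mrc1 at 798 and 907, and clotting factor F8 at 241 and 237. The transcription factor Gata4 stood at 156 CPM in Wnt2/Kit cells (141 to 172) and 178 in Lyve1-side cells (135 to 231), and Maf, another factor of sinusoidal identity, at 1845 (1791 to 1899) and 2207 (2048 to 2374). Of 8 lymphatic markers, Ccl21a, Mmrn1 and Fxyd6 were at 0 UMIs in both sets, and Pdpn was at 0 in Lyve1-side cells. The whole list held 201 UMIs in Wnt2/Kit cells (81.5 CPM) and 29 in Lyve1-side cells (89.1 CPM). T and B cells had 596.5 CPM of it, with Prox1, Pdpn, Ccl21a, Mmrn1 and Fxyd6 at 0. That level came from Reln, Sema3d and Thy1 and is not a free-RNA level of the whole list. Both sets passed the same gate of sinusoidal genes, so a lack of difference between them does not test the label. Aqp1 and Dnase1l3 stood far above T and B cells in both sets. Members were not uniform. Sinusoidal markers, gate genes among them, stood at 18073 CPM in members with at least 4 UMIs of Rspo3, Fabp4, Vwf and Cdh13. In members with 0 or 1 such UMIs they stood at 23468 CPM.

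The word pericentral could be set against hepatocyte RNA that clings to endothelial cells. UMIs of pericentral hepatocyte genes (such as Glul and Cyp2e1) were counted as a share of all UMIs of zonated hepatocyte genes. The share was 40.2% in Wnt2/Kit cells (38.4 to 41.9) and 45.8% in Lyve1-side cells (40.7 to 51.0), against 24.8% in other gated cells and 14.99% in T and B cells. With genes restricted to hepatocytes, a choice made after seeing the data, the shares were 67.5% (62.1 to 72.5) and 68.3% (51.9 to 81.9). Other gated cells then had 36.4% and T and B cells 47.0%. In Wnt2/Kit cells the restricted genes held 224 of 1232 pericentral and 108 of 1835 periportal UMIs. Most UMIs of the full lists thus lay outside the restricted choice, and the full-list share need not reflect hepatocyte RNA alone. The share in T and B cells thus moved with the choice of genes. The share with the full lists was lower, not higher, in Wnt2/Kit cells, with intervals that overlap, and the sign of the difference changed with the rule's cutoff, to 7.63 percentage points higher where Wnt2-side UMIs only had to outnumber Lyve1-side UMIs. These counts therefore did not place the 2 sets at different ends of the lobule. Whole hepatocyte marker UMIs stood at 2791 CPM in Wnt2/Kit cells and 2573 in Lyve1-side cells. In other gated cells they stood at 11409 CPM summed but 2307 in the median cell. Cells rich in hepatocyte RNA thus weigh on the summed share of the other gated cells, which does not place them in the lobule.

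Over all genes, 345 of 6629 with at least 50 UMIs were at least 2-fold higher in Wnt2/Kit cells (5.2% of genes) and 64 were at least 2-fold lower (0.965%). The median log2 fold over these genes was 0.05. The Lyve1-side set held 325346 UMIs against 2466186, so a gene with 50 UMIs in all has few there, and the counts lean on genes near that minimum: with at least 200 UMIs, 43 of 2288 genes were higher and 10 were lower. The rule genes are counted among them. Thinned to 1000 UMIs a cell, 196 of 4155 genes were higher and 45 lower. With cells thinned ahead of the rule, which then chose 941 members and 186 Lyve1-side cells, 184 of 5855 genes were higher and 41 lower.

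Wnt signalling was represented by few ligands. Of 22 Wnt ligand and R-spondin genes outside the rule, 2 reached 50 UMIs, Rspo3 and Wnt9b, and both were higher in Wnt2/Kit cells (all genes 5.2%). With 4 and 1 UMIs in Lyve1-side cells, both reached 50 UMIs through the members, so the count itself is no result. Rspo3 encodes a secreted protein that keeps Wnt receptors at the surface of receiving cells (chr10:29452416-29535867, minus strand). It stood at 212 CPM in Wnt2/Kit cells (194 to 231, 523 UMIs), 27.9 in other gated cells and 12.3 in Lyve1-side cells (3.35 to 31.5, 4 UMIs). That is 17.2-fold (6.70 to 63.5), and 9.91-fold with thinning ahead of the rule. T and B cells had 27.4 CPM, so the Lyve1-side level was no higher than in cells outside the endothelium. Wnt9b, a second β-catenin ligand of central-vein endothelium (chr11:103727364-103749821, minus strand), stood at 34.5 CPM (27.5 to 42.6, 85 UMIs), 8.93 and 3.07 (1 UMI), and at 0 in T and B cells. Its ratio of 11.2 has an interval of 1.96 to 448, since it rests on 1 UMI, and was 5.13 with thinning ahead of the rule. Wnt4 had 10 UMIs in Wnt2/Kit cells and 2 in Lyve1-side cells. A Rspo3 UMI was found in 14.4% of Wnt2/Kit cells, against 2.27% of Lyve1-side cells and 2.42% of T and B cells.

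Genes that make, receive and dampen Wnt signals gave 1 call. Of 42 such genes, 11 reached 50 UMIs, and 1 was 2-fold higher and 0 lower (all genes 5.2% and 0.965%). So short a list cannot be told from the share over all genes. The median log2 fold was 0.28, against 0.05 over all genes. The 1 gene was Dkk3, a secreted protein of the Dickkopf family, at 40.1 and 18.4 CPM. Its ratio of 2.18 had an interval of 0.965 to 6.07, which includes no difference. The co-receptors Lrp5 and Lrp6 stood at 115 and 92.5 CPM in Wnt2/Kit cells and at 95.3 and 92.2 in Lyve1-side cells. Nkd1, a target gene and inhibitor of the pathway, stood at 91.2 CPM (79.7 to 104) and 79.9 (52.2 to 117). Axin2, the common reporter of β-catenin signalling, had 4 UMIs in Wnt2/Kit cells and 0 in Lyve1-side cells. A count of 0 allows up to 3 UMIs, so Axin2 could not be compared at this depth.

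KIT signalling genes other than Kit gave no call. Of 21 outside the rule, 17 reached 50 UMIs and none differed by 2-fold (all genes 5.2% higher and 0.965% lower). With those shares few calls would fall in so short a list, so the count is no result about the pathway. The median log2 fold was 0.08, against 0.05 over all genes. Kitl, which encodes the KIT ligand, stood at 21.1 CPM in Wnt2/Kit cells (15.8 to 27.7) and 30.7 in Lyve1-side cells (14.7 to 56.5). The SRC-family kinase Fyn stood at 363 and 341 CPM and the adaptor Grb2 at 92.5 and 89.1.

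Most measured genes known from central or vein endothelium were higher in Wnt2/Kit cells. Of 12 on the list, 11 reached 50 UMIs and 9 were at least 2-fold higher, against 5.2% of all genes; 6 of the 9 had at most 6 UMIs in Lyve1-side cells, so they reached 50 UMIs through the members, and the list was written with earlier results known. Cdh13, a membrane-anchored cadherin, stood at 172 CPM in Wnt2/Kit cells (156 to 190), 70.0 in other gated cells and 18.4 in Lyve1-side cells (6.77 to 40.1), 9.35-fold in all (4.26 to 25.6) and 4.88-fold with thinning ahead of the rule. Fabp4, a fatty-acid carrier, stood at 839, 408 and 329 CPM, 2.55-fold (2.10 to 3.13). Thbd, the thrombin receptor that turns on protein C, stood at 198, 89.7 and 73.8 CPM, 2.68-fold (1.78 to 4.22), against 3.57 in T and B cells. Each of the 3 genes had its middle level in the gated cells that met neither rule. A list of 15 vein markers, which shares genes with the first list, had 12 with at least 50 UMIs. Of these 8 were higher and 1 was lower (all genes 5.2% and 0.965%). The lower one was Ltbp4, which is on the portal list too. The summed vein markers were close, at 3448 CPM in Wnt2/Kit cells and 3086 in Lyve1-side cells.

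Haemostasis and vessel-tone genes had 15 of 28 members with at least 50 UMIs, of which 6 were higher and none lower (all genes 5.2% and 0.965%). Vwf, Edn1 and Selp, 3 of the 6, reached 50 UMIs through the members, with 0 UMIs in Lyve1-side cells. Ptgs1, a cyclooxygenase of prostaglandin synthesis, stood at 234 CPM in Wnt2/Kit cells (215 to 253) and 83.0 in Lyve1-side cells (54.7 to 121). Anxa2, which holds plasminogen activator at the surface, stood at 184 and 67.6 CPM, against 118 in T and B cells; its ratio of 2.72 was 1.79 with thinning ahead of the rule. Vwf, Edn1 and Selp, for von Willebrand factor, endothelin-1 and P-selectin, had 59, 65 and 68 UMIs in Wnt2/Kit cells. Set against 3 UMIs in the Lyve1-side set, the floor used here, they were at least 2.59-, 2.86- and 2.99-fold higher, and the exact interval of the ratio began at 2.045, 2.26 and 2.37. Vwf was found in 34 members and Edn1 in 25, and the 10 members richest in each held 59.3% and 70.8% of its UMIs.

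Of 35 adhesion and junction genes, 30 reached 50 UMIs and 2 were higher, Gja4 and Cd9, a share near that over all genes (5.2%), with a median log2 fold of 0.02 against 0.05. Gja4, the gap-junction protein connexin 37, stood at 301 CPM in Wnt2/Kit cells (280 to 324), 146 in other gated cells and 86.1 in Lyve1-side cells (57.2 to 124), 3.501-fold (2.40 to 5.31); with thinning ahead of the rule it was 1.99-fold. It was found in 38.6% of Wnt2/Kit cells, 14.8% of Lyve1-side cells and 2.66% of T and B cells. Cd9, a tetraspanin, stood at 232, 105 and 73.8 CPM, 3.14-fold (2.09 to 4.94). Bcam, a laminin receptor, stood at 66.9, 31.4 and 21.5 CPM. Cd9 shares 10.7% and Rspo3 13.1% of exon bases with a gene model on the opposite strand. Among the 15 largest ratios with at least 100 UMIs also stood Ramp3, a co-receptor of the calcitonin family, at 45.01 and 6.15 CPM, and Tspan13 at 43.4 and 6.15; T and B cells had 124 CPM of Tspan13. Sec24b, Acot9, Ifitm10, Plppr5 and Amigo2 were also among these 15, as were Hist1h2ap, H2-Aa and Stmn1, a microtubule regulator of dividing cells.

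Of 33 secreted signals of endothelium, 16 reached 50 UMIs, and 2 were higher and 1 lower (all genes 5.2% and 0.965%). The 2 were Gas6 and Edn1, the latter at 0 UMIs in Lyve1-side cells. Gas6, a ligand of the TAM receptors, stood at 350 CPM in Wnt2/Kit cells (327 to 374) and 145 in Lyve1-side cells (106 to 192), 2.42-fold (1.80 to 3.32); with thinning ahead of the rule it was 1.63-fold. Bmp2, which controls iron through hepcidin, stood at 1072 CPM (1031 to 1113) and 901 (800 to 1010). Bmp6 had 32 and 9 UMIs and Hgf 53 and 10, too few to compare. Ctgf, a matrix-linked growth factor, stood at 47.4 CPM (39.2 to 56.9) in Wnt2/Kit cells and 221 (173 to 279) in Lyve1-side cells, 4.67-fold higher there (3.43 to 6.31) and 2.70-fold with thinning ahead of the rule; 23.2% of its exon bases lie in a gene model on the opposite strand. The chemokine Cxcl9 was 3.89-fold and the laminin chain Lama4 2.34-fold higher in Lyve1-side cells.

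Several genes known from portal-side endothelium were lower in Wnt2/Kit cells. Of 16 on the list, 14 reached 50 UMIs, 6 were at least 2-fold lower, against 0.965% of all genes, and 1 was higher (median log2 fold -0.94). Efnb2, the arterial ephrin ligand (chr8:8617434-8661242, minus strand), stood at 38.9 CPM in Wnt2/Kit cells (31.5 to 47.5), 56.8 in other gated cells and 108 in Lyve1-side cells (74.9 to 150), 2.76-fold higher there (1.82 to 4.11); with thinning ahead of the rule it was 1.39-fold. Dll4, a Notch ligand (chr2:119325784-119335962, plus strand), stood at 62.9, 90.03 and 135 CPM, 2.15-fold higher in Lyve1-side cells (1.503 to 3.03); after thinning the ratio was 1.37. Ltbp4, which binds latent TGF-β in matrix, stood at 454 (428 to 481), 612 and 953 CPM (850 to 1065). The scavenger receptor Msr1 stood at 47.0, 114 and 209 CPM, 4.44-fold higher in Lyve1-side cells (3.24 to 6.05). The netrin Ntn4 stood at 102, 163 and 326 CPM and the integrin chain Itgb3 at 27.2, 37.9 and 76.8. For all 6 genes the other gated cells again lay between the ends. The exception was Lrg1, a secreted glycoprotein, at 36.1 CPM in Wnt2/Kit cells and 3.07 in Lyve1-side cells (1 UMI), with 34.7 in other gated cells.

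Notch and ephrin genes had calls in both directions. Of 12 with at least 50 UMIs, 1 was higher and 2 were lower (all genes 5.2% and 0.965%). The 2 were Dll4 and Efnb2, already counted in the portal list. Lfng, the fringe enzyme that sugars Notch, was higher at 174 CPM (158 to 192) against 76.8 (49.7 to 113). T and B cells had 136 CPM of Lfng. The Lfng ratio of 2.27 was 1.86 with thinning ahead of the rule. The target gene Hes1 stood at 313 CPM (291 to 336) and 516 (441 to 601), and the receptor Notch1 at 168 and 203. In other lists most genes were close. None of 20 lysosomal, 9 VEGF and angiopoietin or 6 nucleotide-signalling genes with at least 50 UMIs differed by 2-fold (all genes 5.2% higher and 0.965% lower). Of 35 endothelial transcription factors 2 did, Hhex and Lhx6, both higher, a share near that over all genes (5.2%). Lhx6 had 77 UMIs in Wnt2/Kit cells and 0 in Lyve1-side cells, so it reached 50 UMIs through the members. Klf2, a factor induced by flow, stood at 944 CPM (906 to 983) and 563 (484 to 650), 1.68-fold; T and B cells, which use it too, had 853. P2ry14, the receptor of the series' title, had 17 UMIs in Wnt2/Kit cells and 1 in Lyve1-side cells, and P2ry1 179 and 29.

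**Figure D3:**
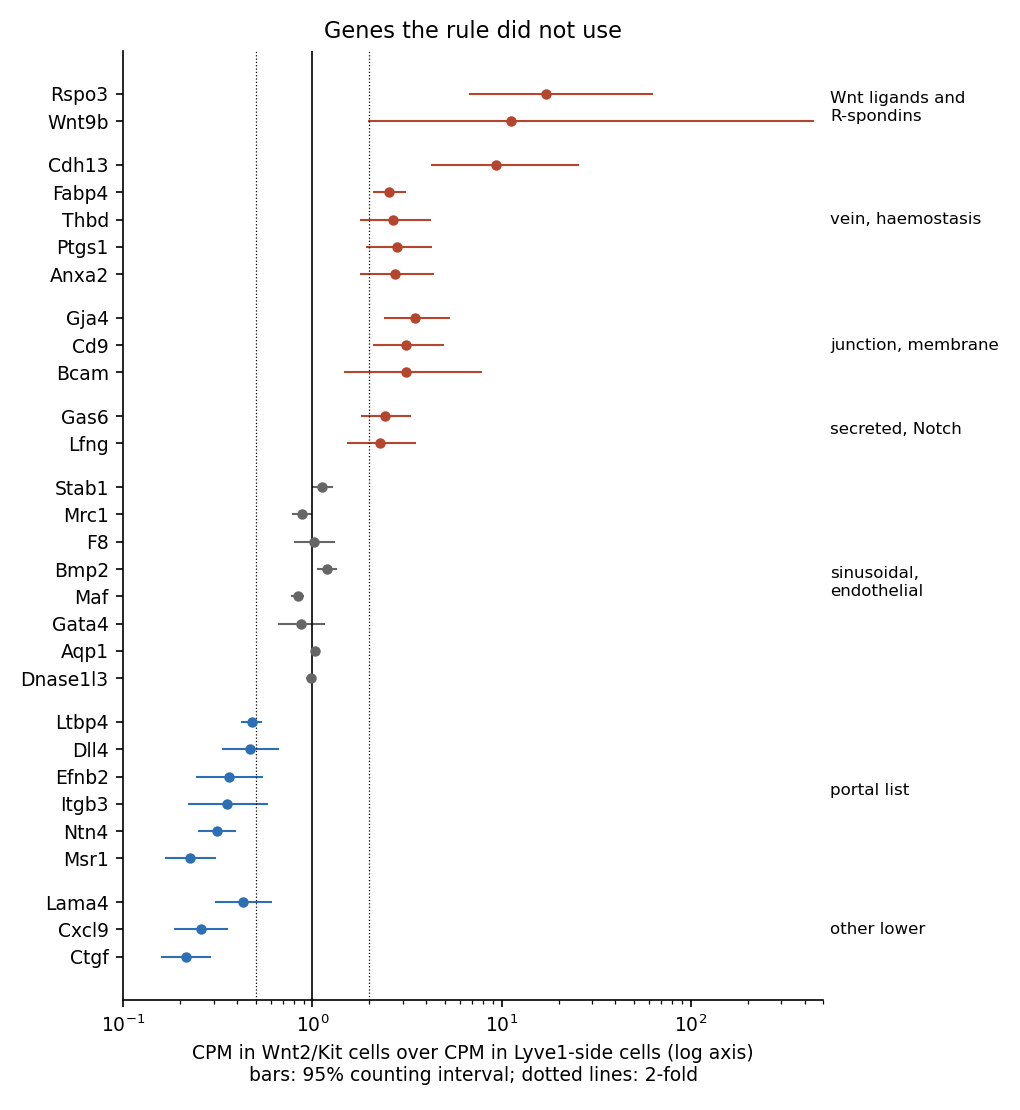
Ratio of CPM in Wnt2/Kit cells to CPM in Lyve1-side cells (log axis) for genes outside the rule, with 95% counting intervals; dotted lines mark 2-fold. Wnt9b has the widest interval (1.96 to 448), the sinusoidal genes lie near 1, and the 6 genes of the portal list that were 2-fold lower lie between 0.225 and 0.476.

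Members differed in their UMIs of vein genes. After seeing the data, members were split by UMIs of Rspo3, Fabp4, Vwf and Cdh13: 268 had at least 4, 245 had 2 or 3, and 648 had 0 or 1, with median depths of 2084.5, 1946 and 1862.5 UMIs. Of 5355 genes with at least 50 UMIs, the 4 that made the split among them, 69 were at least 2-fold higher in the first set than in the last (1.29%) and 61 lower (1.14%). Wnt9b stood at 95.3 CPM (62 UMIs) in members with at least 4, 32.1 in the middle set and 4.67 (6 UMIs) in the last, 20.4-fold between the ends (8.87 to 57.8). Selp stood at 75.3, 20.8 and 6.22 CPM and Edn1 at 73.8, 17.0 and 6.22. The transcription factor Lhx6 stood at 70.7, 22.7 and 14.8 CPM. Wnt9b, Selp, Edn1 and Lhx6 reached 50 UMIs mainly through the members with at least 4 vein-gene UMIs. Their place among the higher genes is thus no separate support for the split. Lyve1-side cells had 3.07 CPM of Wnt9b. The largest ratios with at least 100 UMIs were led by genes of other cell types, the MHC class II genes H2-Ab1 and H2-Aa, followed by Bcam.

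The rule genes themselves differed less along this split. Wnt2 stood at 644, 442 and 407 CPM, 1.58-fold between the ends (1.39 to 1.80), and Kit at 360, 342 and 308, 1.17-fold (0.989 to 1.37). Thbd stood at 292, 232 and 135 CPM, Cd9 at 412, 179 and 162, and Bcam at 141, 51.0 and 35.8. Klf2 stood at 1378, 965 and 715 CPM. Sinusoidal genes went the other way: Stab2 stood at 1023, 1268 and 1347 CPM, Fcgr2b at 1185, 1563 and 1879, and Kdr at 1125, 1470 and 1724. Cd36, a fatty-acid transporter, stood at 172, 289 and 372 CPM and Ltbp4 at 280, 378 and 573, both lowest in the members richest in vein genes. Clec4g stood at 2525, 2761 and 3103 CPM. Stab2, Fcgr2b, Kdr and Clec4g are gate genes, so every member was chosen to hold RNA of this kind. Whether droplets with more than 1 cell have a part in this was not tested.

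**Figure D4:**
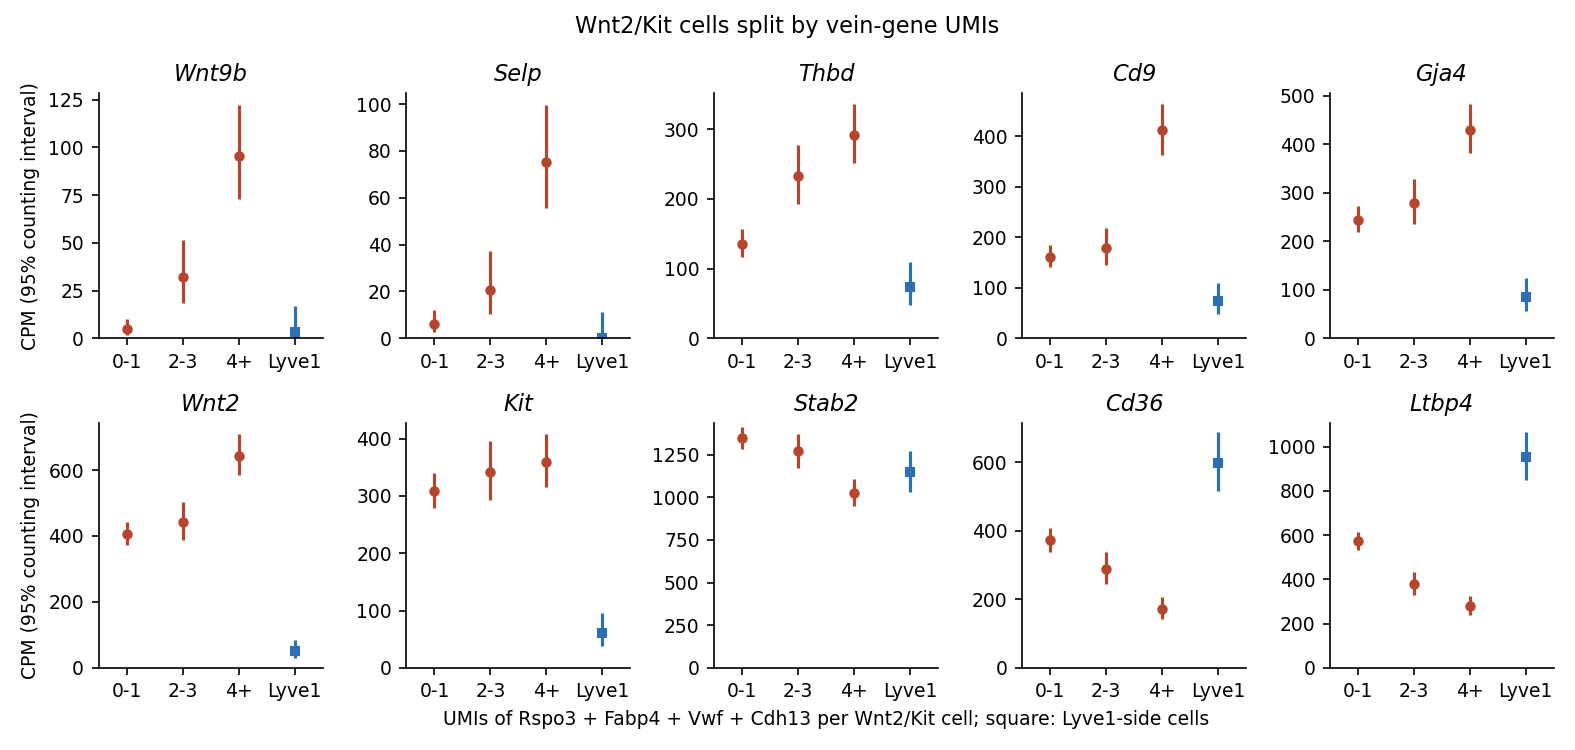
CPM of 10 genes (each panel with its own axis from 0, bars are 95% counting intervals) in Wnt2/Kit cells with 0 or 1, 2 or 3, and 4 or more UMIs of Rspo3, Fabp4, Vwf and Cdh13, and in Lyve1-side cells (blue square). Wnt9b reached 95.3 CPM in the vein-rich members, while Kit stayed between 308 and 360.

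Without the cells with at least 4 vein-gene UMIs, 893 members and 168 Lyve1-side cells remained. Gja4 was then 3.16-fold higher in members, Ptgs1 2.63-fold, Gas6 2.60-fold and Thbd 2.21-fold, and Msr1 was 3.84-fold and Ntn4 2.80-fold higher in Lyve1-side cells. Rspo3, which the split used, was 2.11-fold higher, and Wnt9b 3.93-fold on 23 UMIs against 1. The number of genes 2-fold higher was 208 and the number lower 45. Of 56 named genes past 2-fold, 41 stayed past it. Fabp4, which the split used, was 1.72-fold and Lfng 1.97-fold higher in members, and Ltbp4 was 1.86-fold and Dll4 1.997-fold higher in Lyve1-side cells. Lhx6, Selp, Edn1 and Vwf had 31, 19, 17 and 6 UMIs left in members and 0 in Lyve1-side cells, too few to call.

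Levels were also followed along the share of Wnt2-side UMIs in both rule sums, over gated cells with at least 3 UMIs in the 2 sums together, from 263 cells with the lowest shares to 167 cells with 100%. Rspo3 stood at 10.4, 7.01, 39.3, 90.6, 273 and 489 CPM over the 6 steps. Gja4 stood at 102, 180, 150, 257, 317 and 419 CPM. Ltbp4 stood at 933, 771, 634, 534, 391 and 335 CPM, lower at every step. Msr1 stood at 220, 167, 87.9, 59.3, 37.0 and 30.2 CPM, and Efnb2 at 110, 67.8, 51.0, 44.5, 39.1 and 18.1. Thbd was highest in the fifth step, at 241 CPM, and stood at 178 in the last. Among cells with 0 or 1 vein-gene UMIs, Gja4 still went from 99.7 to 305 CPM, Ltbp4 from 956 to 528 and Msr1 from 219 to 57.8 between the first step and the last, while Wnt9b was at most 8.59 CPM at any step. The last step of that series held 72 cells. These genes were picked for the trend after their values were seen.

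**Figure D5:**
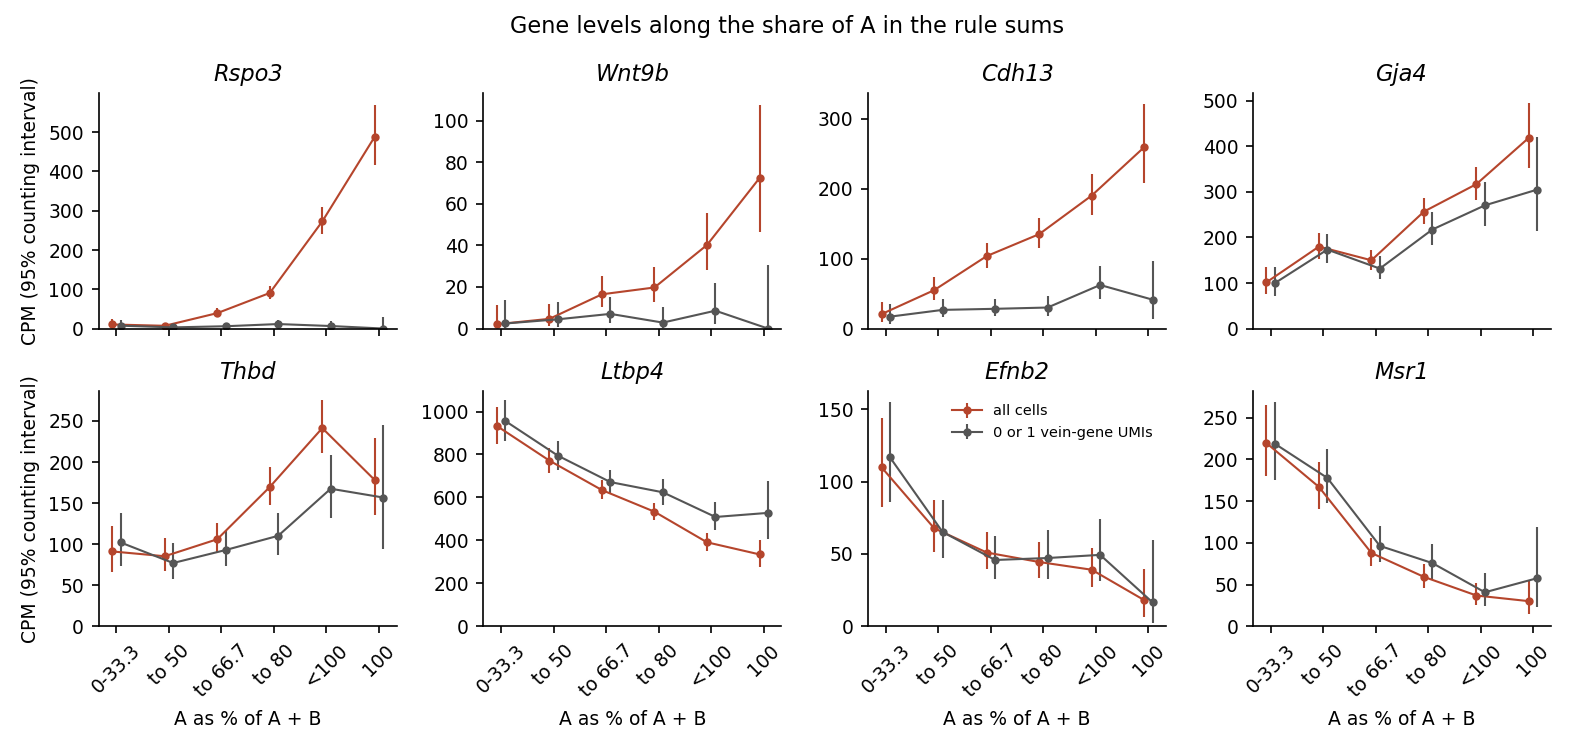
CPM (95% counting intervals) of 8 genes in 6 steps of the share of Wnt2-side UMIs in both rule sums, for all gated cells (red) and for cells with 0 or 1 vein-gene UMIs (grey). Rspo3 and Cdh13 are low in grey because the vein-gene sum holds them; from the first step to the last, Gja4 is higher and Ltbp4 and Msr1 are lower in both.

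Some genes of dividing cells and of other cell types differed between the sets too. Hist1h2ap, a histone gene of dividing cells, had 418 UMIs in Wnt2/Kit cells, 82.5% of them in 10 cells, and 5 in Lyve1-side cells. Its ratio was 11.03, 5.77 after thinning and 11.1 without cells rich in foreign RNA. Stmn1 had 135 and 4 UMIs, a ratio of 4.45 that was 2.01 after thinning. Mki67 was found in 10 of 1161 members and 0 of 176 Lyve1-side cells, and Top2a in 13 and 2. Counts this small do not tell the 2 sets apart in dividing cells. Of 20 cell division genes, 4 reached 50 UMIs and 1, Hist1h2ap, was higher (all genes 5.2%). The MHC class II gene H2-Aa was 3.41-fold higher in Wnt2/Kit cells, with 64.5% of its UMIs in 10 cells, and after thinning the ratio was 1.15. Haemoglobin gene Hba-a1 was 2.005-fold higher, with 86.1% of its UMIs in 10 cells, and 1.05-fold after thinning; its near-identical copy Hba-a2 can share its reads. The plasma-cell gene Jchain was 22.8-fold higher in Lyve1-side cells, where 1 cell held 97.6% of immunoglobulin UMIs. Along the vein-gene split, haemoglobin, MHC class II and S100a8 and S100a9 genes were higher in the vein-rich members: red-cell and platelet markers stood at 17372 CPM there and 5692 in members with 0 or 1 vein-gene UMIs, and MHC class II and dendritic markers at 1727 and 479. Stellate markers stood at 1195 and 865 CPM. Their part in the differences along that split was not tested.

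Leaving out 22 members and 3 Lyve1-side cells rich in such RNA left the endothelial ratios close: Rspo3 was 15.8-fold, Gja4 3.59-fold and Thbd 2.61-fold higher in members, and Msr1 was 4.51-fold higher in Lyve1-side cells. In the whole marker lists, hepatocyte markers stood at 2791 and 2573 CPM in Wnt2/Kit and Lyve1-side cells, stellate markers at 984 and 768, Kupffer and macrophage markers at 566 and 695, and T cell markers at 210 and 298. All 15 hepatocyte and all 14 Kupffer markers were above 0 in both sets, and Pdgfrb and Col1a1, of 14 stellate markers, were at 0 in Lyve1-side cells.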

How the data were processed

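Single-cell libraries were made with the Chromium 3′ v2 kit, per the labels' protocols. Cell Ranger (version not stated) and 2 build names, GRCm38 and mm10, come from the submitters' processing notes; how strand and filters were handled is not stated there. The deposited values are whole-number UMI counts per gene and barcode (5063 barcodes, 11455886 UMIs in the 4808 kept), and the deposited bulk tables were not used. Counts were summed per set of cells and divided by the set's total to give CPM. Exact Poisson, binomial and conditional binomial intervals at 95% came from scipy 1.17.1 in Python 3.11.15 and were tested on simulated data. Doublets were not called; at most 2 UMIs of 4 stellate and Kupffer genes were allowed. Cells were thinned to 1000 UMIs, leaving out 12 members and 3 Lyve1-side cells under that depth. Gene positions and exon overlaps are from GENCODE vM21 (GRCm38).

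Members, lists and tests were chosen with earlier results of these data known. Named genes were the 15 largest ratios in each direction with at least 100 UMIs, without mitochondrial, ribosomal, predicted, pseudo- and receptor-segment genes; list genes past 2-fold with at least 50 UMIs and up to 4 with most UMIs; and a fixed set of zonation genes; further named genes were chosen after their values were seen. A planned comparison with vein endothelial cells outside the gate was not made, since that set held 12 cells; the split of members by vein genes replaced it after the data were seen.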

Additional observations from a re-analysis of the deposited data

How the results depend on the processing

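All values rest on 1 library, and no paired analysis was possible because no test was made. The number of members (1161) was 1742 with more Wnt2-side than Lyve1-side UMIs as the rule, 599 with more than 4 times as many, 757 with the stellate and Kupffer genes at 0 and 672 without Tinagl1. The number of genes 2-fold higher (345) was 144 under the first of these rules, 196 with cells thinned to 1000 UMIs and 184 with thinning ahead of the rule. It was 107 without Plpp1 in the rule, 149 without Fam167b, 90 without Tinagl1, 756 with at least 20 UMIs, 43 with at least 200 and 208 without cells with 4 or more vein-gene UMIs. The number lower (64) was 100 with at least 5 Wnt2-side UMIs, 40 with more Wnt2-side than Lyve1-side UMIs, 105 with more than 4 times as many, 41 with thinning ahead of the rule, 39 without Plpp1, 260 with at least 20 UMIs and 10 with at least 200. Of all calls 84.35% were higher, against 76.29% with median-of-ratios scaling (296 higher, 92 lower), 73.29% without Plpp1, 66.82% without Fam167b and 61.64% without Tinagl1. The difference in the pericentral share of hepatocyte UMIs (-5.64 percentage points) was -12.15 with at least 2 Wnt2-side UMIs, 7.63 and -19.29 under the more-than and 4-times rules, 8.85 without Fam167b and 3.36 without Tinagl1. The cause was not tested for any of these.

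Of 57 named genes past 2-fold, 25 stayed past it with the more-than rule, 25 of 56 with thinning ahead of the rule and 37 of 52 with thinning after it, and 39 without Tinagl1 and 40 without Plpp1 in the rule. Log2 ratios turned sign as follows. Plac8 was -0.27 with at least 2 Wnt2-side UMIs. Jchain was 1.58 with at least 5, 1.49 with an endothelial sum of at least 8, 0.34 with thinning ahead of the rule, 0.16 without the 10% of cells of highest UMIs and 0.40 without cells rich in foreign RNA. Gzma was -0.60 with the more-than rule, -0.17 with stellate and Kupffer genes at 0, -1.59 without Plpp1 and -0.67 without Tinagl1. Vwa5a was 0.43 with the 4-times rule and Hhex -0.037 without Tinagl1. With thinning ahead of the rule, H2-Aa was -0.16, Bambi -0.35, Alox5ap -0.23, Hba-a1 -0.017, Hbb-bt -0.36 and Hba-a2 -0.0032. Without the cells of highest UMIs, H2-Aa was -0.37, Alox5ap -0.74, Siglech -0.59, Cd3d 0.79, Hba-a1 -1.55, Hbb-bs -0.89, Hbb-bt -0.80 and Hba-a2 -2.03. Without cells rich in foreign RNA, Hbb-bs was -0.029 and Hbb-bt -0.20. The cause was not tested. Genes at 0 in a set under an alternative have no value there. Leaving out foreign-RNA or vein-gene cells and restricting hepatocyte genes were chosen after seeing the data. The alternatives for the comparison with vein endothelial cells were not run. Depth limits genes with few UMIs in the 176 Lyve1-side cells.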
